A study of Mus musculus with 4 samples.

Results

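Apolipoproteins are the protein parts of lipoproteins, the particles that carry triglyceride and cholesterol through the blood, and the liver makes most of them. Apob forms the scaffold of very-low-density and low-density particles, Apoa1 and Apoa2 that of high-density particles, and the smaller proteins move between particles and steer lipases and receptors. The expression of 10 of their genes was measured here in livers of male mice in which the gene of the selenocysteine tRNA, Trsp, had been removed or in which mutant copies of it were carried as transgenes. This tRNA inserts selenocysteine into selenoproteins, among them antioxidant enzymes, and the changed positions lie in its anticodon loop. The genes, Apoa1, Apoa2, Apoa4, Apoa5, Apob, Apoc1, Apoc2, Apoc3, Apoe and Apom, were chosen by name. All 10 had at least 1 array feature annotated to them alone, 13 features in all, out of 9285 named genes on 13047 features. Apoa2, Apoa4 and Apoc1 had 2 features each.

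In DTrsp mice, Trsp was missing from the liver. The A34 transgene, present in 2 copies, replaces T34 of the tRNA by A34. The G37 transgene replaces A37 by G37 and was present in 2 copies in G37L mice and in 16 copies in G37H mice. The reference in each comparison was liver of wild-type littermates, labelled Trsp. All were males of a B6/FVB background, 7 to 8 weeks old, on a diet sufficient in selenium. The labels name no Cre driver or promoter, and whether livers with a transgene still had their own Trsp is left unsaid. RNA of both genotypes was hybridised on 2-colour arrays, mutant in Cy5 and wild type in Cy3. Dye and genotype thus changed together in each column, so their effects on a gene cannot be told apart. Each line is represented by 1 column of averaged log ratios, over 3 animals in G37H and 4 in each of the others.

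Values are read as log2 of mutant over wild type, so 1 is 2-fold higher and -1 is 2-fold lower in the mutant. That direction is likely and not settled: it rests on the dye labels, whereas titles put the wild type in front. If the ratio ran the other way, every sign below would flip, and Apoa4 would be the highest gene in G37H. The spread between animals is not in the averages, so no SD and no test can be given, and each value is a description. The spread that can be had is between 2 features of the same gene: over 1791 such genes its median absolute size was 0.43 in DTrsp, 0.29 in A34, 0.31 in G37L, with 0.30 in G37H. The medians of all 9285 genes lay at 0.16 in DTrsp, 0.07 in A34, -0.11 in G37L, with -0.11 in G37H. Of the 52 values of the apolipoprotein features, 0 had decimals that show an average over fewer arrays than labelled, against 5.77% to 14.4% of all features in a column. Decimals cannot show every such case, since an average over 2 arrays has decimals that 4 arrays can also give. Complete averages are therefore not established. Whole liver was used, so fewer cells of a type and less RNA per cell cannot be told apart. Trsp itself had no named feature, and the deletion could not be checked.

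Apoa4 stood apart from the other 9 genes. In G37H liver it was 6.25-fold lower than in wild type, the lowest average of all 9285 named genes. Apoa4 codes for apolipoprotein A-IV, a protein of chylomicrons and high-density particles that in mice is made by intestine and liver. It lies on chromosome 9 beside Apoa1, Apoc3 and Apoa5, and the promoters of Apoa1, Apoa4 and Apoa5 are shown because these neighbours had unlike values in G37H. Each is the 250 bases before the RefSeq start, from GRCm38.p6 and on the plus strand, with capitals marking the motif matches described further on.
Apoa1, chr9:46228380-46228629: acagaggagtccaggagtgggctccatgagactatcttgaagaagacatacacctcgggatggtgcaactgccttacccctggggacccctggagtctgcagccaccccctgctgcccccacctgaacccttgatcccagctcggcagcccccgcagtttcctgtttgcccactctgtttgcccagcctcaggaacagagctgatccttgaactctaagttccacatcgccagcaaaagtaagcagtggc
Apoa4, chr9:46240594-46240843: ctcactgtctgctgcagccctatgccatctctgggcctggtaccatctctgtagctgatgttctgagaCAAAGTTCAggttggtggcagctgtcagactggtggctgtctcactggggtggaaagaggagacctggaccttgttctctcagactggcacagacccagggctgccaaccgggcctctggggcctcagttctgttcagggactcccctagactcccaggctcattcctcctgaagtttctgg
Apoa5, chr9:46268358-46268607: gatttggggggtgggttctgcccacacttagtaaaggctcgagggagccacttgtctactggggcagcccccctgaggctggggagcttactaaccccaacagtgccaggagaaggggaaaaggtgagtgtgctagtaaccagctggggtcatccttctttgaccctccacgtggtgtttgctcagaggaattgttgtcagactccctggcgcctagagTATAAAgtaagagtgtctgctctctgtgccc

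The log2 ratio of Apoa4, averaged over its 2 features, was 0.39 in DTrsp, -0.47 in A34, -0.61 in G37L, with -2.64 in G37H. It was below 0 in the 3 lines that carried a mutant tRNA transgene and, as deposited but not relative to ribosomal or other plasma protein genes, above 0 in the knockout. The features gave -2.47 and -2.81 in G37H, ranks 10 and 4 from the lowest of all 15478 features, and the decimals of the -2.81 show an average over 3 arrays. In G37L they gave -0.64 and -0.59, and in A34 -0.66 and -0.27. In DTrsp the features disagreed, at 1.05 and -0.28, a gap larger than that of 93.5% of gene pairs of features, so Apoa4 has no settled direction there. Its average there was -0.12 relative to ribosomal protein genes and to -0.10 relative to other plasma protein genes.

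Between the lines with the same tRNA change, Apoa4 was lower with 16 copies (-2.64) than with 2 copies (-0.61), a difference of -2.03 for G37H minus G37L. This difference ranked 21 from the lowest of 9285 genes. None of the other 9 apolipoprotein genes differed by 2-fold between these lines. Their differences ran from -0.51 for Apob to 0.18 for Apoe. Of the 9285 genes, 4.07% passed 2-fold upward in this comparison and 2.67% downward. With so few apolipoprotein genes, finding none of the other 9 past 2-fold is near these shares. Between the mutations at 2 copies each, A34 minus G37L was 0.15 for Apoa4. Set against the knockout, Apoa4 differed by -0.85 in A34, -1.0 in G37L, with -3.03 in G37H. The shares of all genes at or below these differences were 6.35%, 10.1% and 0.097%. The 2 Apoa4 features were at 1.05 and -0.28 in DTrsp and, in the same order, at -0.66 and -0.27 in A34. The size of the differences from the knockout, and of the range given below, is therefore not settled. The labels do not state whether the lines shared wild-type animals. The range of Apoa4 over the 4 lines, 3.03, was at or above that of 99.5% of genes, and 2.76 after each column was centred on its median.

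**Figure D1:**
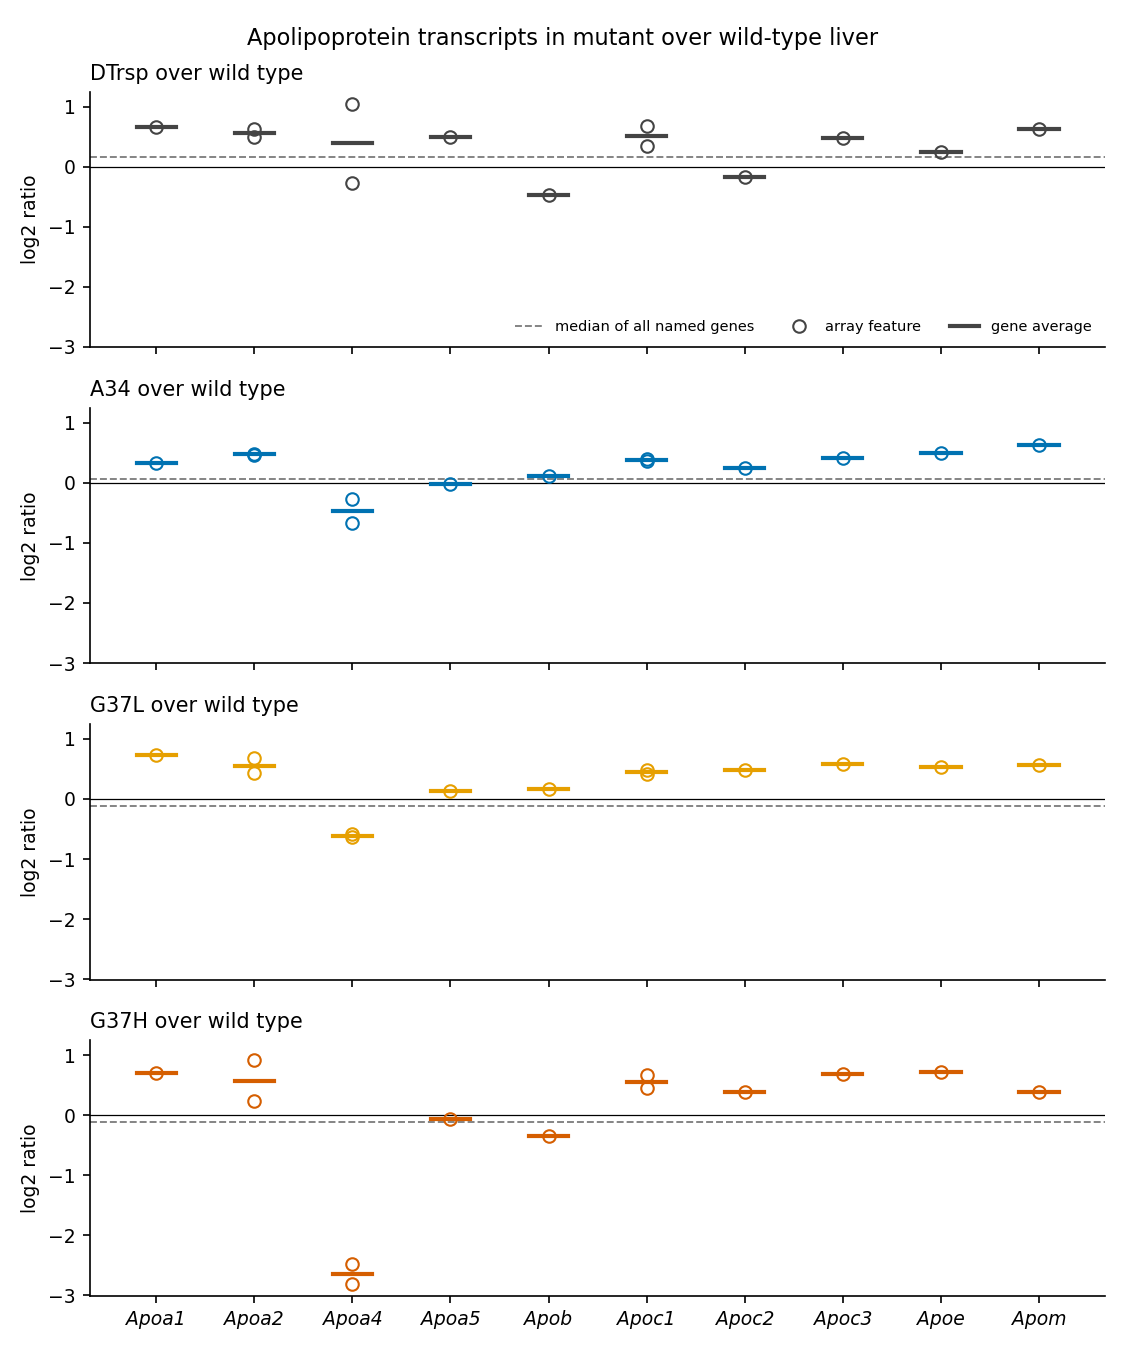
Log2 ratio of mutant over wild-type liver, as deposited, for each apolipoprotein gene in each line. Circles are array features, bars are gene averages and the dashed line is the median of all named genes. Both Apoa4 features lie at -2.47 or below in G37H. Apoa1, Apoa2, Apoc1, Apoc3, Apoe and Apom lie between 0.24 and 0.73 as gene averages in all lines. Apoc3 and Apoe in DTrsp fall below 0 relative to ribosomal protein genes. Of these genes, only Apoa2 and Apom stay above 0 in every line relative to both ribosomal and other plasma protein genes.

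As a group the 10 genes lay somewhat above wild type in every line as deposited, a direction that turned in DTrsp relative to ribosomal protein genes and in A34 relative to other plasma protein genes. Their median log2 ratio was 0.49 in DTrsp, 0.36 in A34, 0.51 in G37L, with 0.47 in G37H, which is 0.33, 0.29, 0.62 and 0.59 above the median of all genes. The median of 59 other plasma protein genes of the liver was 0.48 in DTrsp, 0.42 in A34, 0.45 in G37L, with 0.20 in G37H. Relative to those genes the apolipoprotein median was 0.0043 in DTrsp, -0.066 in A34, 0.059 in G37L, with 0.27 in G37H. The 62 ribosomal protein genes had medians of 0.51, 0.20, 0.34 and 0.17, and relative to them the apolipoprotein median was -0.018 in DTrsp, 0.16 in A34, 0.18 in G37L, with 0.31 in G37H.

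Few apolipoprotein values were far from wild type. Averaged per gene, 0 of 10 were at least 2-fold higher in any line, where the share of all genes was 3.27% in DTrsp, 1.4% in A34, 2.51% in G37L, with 2.78% in G37H. At least 2-fold lower were 0 of 10 in DTrsp (1.62% of all genes), 0 in A34 (0.452%), 0 in G37L (3.96%) and 1 in G37H (3.1%), which was Apoa4. With so few genes, counts of 0 or 1 are near these shares.

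**Figure D2:**
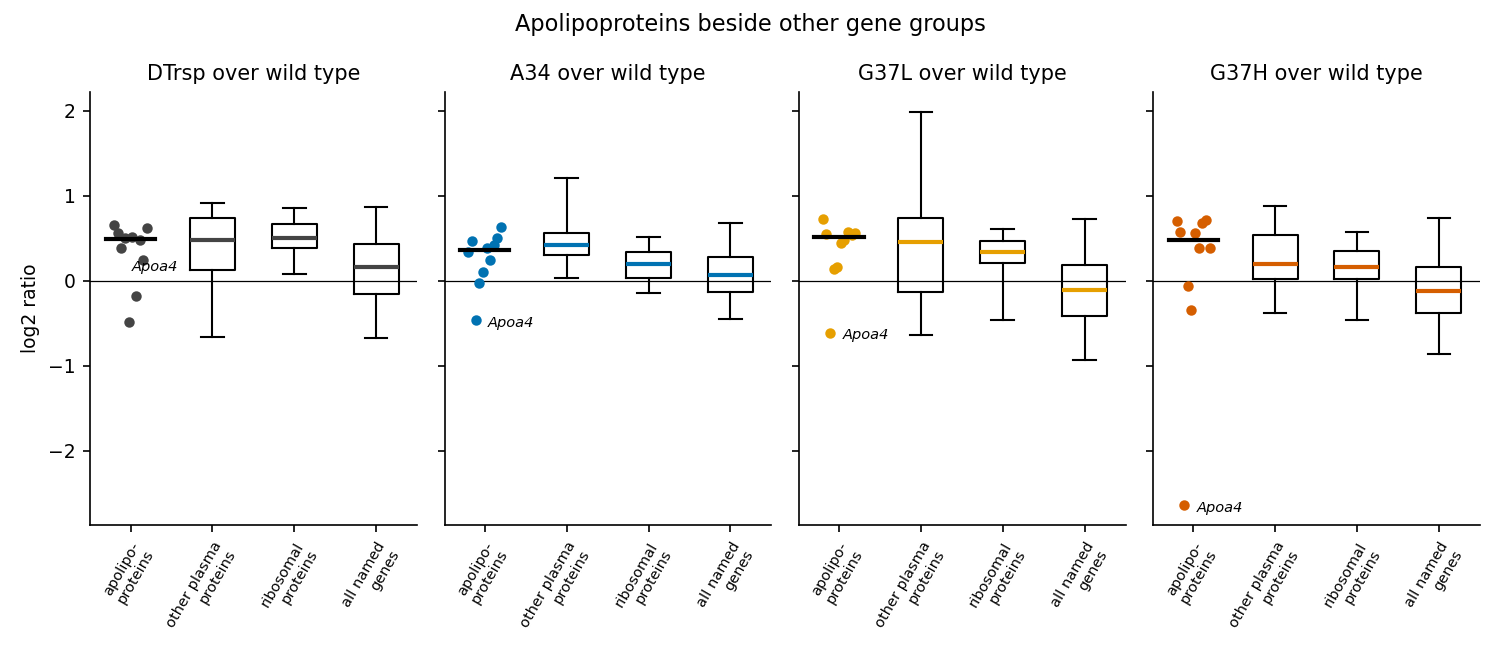
Log2 ratio over wild type, as deposited, for the 10 apolipoprotein genes (points, black bar for their median), 59 other plasma protein genes, 62 ribosomal protein genes and all 9285 named genes (boxes for quartiles, whiskers for the 5th and 95th percentiles). The apolipoprotein median, between 0.36 and 0.51, lies above that of all genes in each line, though in DTrsp it is -0.018 relative to ribosomal protein genes and in A34 -0.066 relative to other plasma protein genes; Apoa4 in G37H lies far below every box.

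Apoa1, the main scaffold of high-density particles and the activator of the enzyme Lcat, had log2 ratios of 0.66 in DTrsp, 0.34 in A34, 0.73 in G37L, with 0.70 in G37H. These correspond to 1.58-fold, 1.26-fold, 1.66-fold and 1.63-fold higher levels than in wild type, with A34 the lowest. Relative to other plasma protein genes Apoa1 was at 0.18 in DTrsp, -0.09 in A34, 0.28 in G37L, with 0.50 in G37H. Apoa2, the second protein of these particles, was at 0.56, 0.47, 0.56 and 0.57 in the same order of lines. Its range of 0.10 was smaller than that of all but 0.377% of genes, although it widened to 0.29 after centring. The 2 Apoa2 features lay within 0.25 of each other in DTrsp, A34 and G37L, but at 0.92 and 0.23 in G37H. Apom, which carries sphingosine-1-phosphate on high-density particles, was at 0.63 in DTrsp, 0.63 in A34, 0.56 in G37L, with 0.38 in G37H. It was the highest of the 10 in A34, above 93.8% of genes.

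Apob was at -0.48 in DTrsp, 0.11 in A34, 0.17 in G37L, with -0.35 in G37H, as deposited. Relative to ribosomal protein genes Apob was at -0.09 in A34 and -0.17 in G37L. Relative to other plasma protein genes Apob was at -0.31 and -0.29 there, so its direction in these 2 lines is not settled. It was the lowest of the 10 in DTrsp, where 9.68% of genes were at or below it, and it had 1 feature. Apoc2, the activator of lipoprotein lipase, was at -0.18 in DTrsp, 0.25 in A34, 0.48 in G37L, with 0.39 in G37H. Relative to other plasma protein genes Apoc2 was at -0.175 in A34. As gene averages as deposited, Apob and Apoc2 were the only ones of the 10 below 0 in DTrsp; relative to ribosomal protein genes, Apoa4, Apoa5, Apoc3 and Apoe were below 0 there too. Set against the knockout, Apob was higher by 0.59 in A34, 0.65 in G37L, with 0.13 in G37H, and Apoc2 by 0.43, 0.66 and 0.57.

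Apoc3, an inhibitor of lipoprotein lipase and of particle uptake, was above wild type in each line as deposited, at 0.47 in DTrsp, 0.42 in A34, 0.58 in G37L, with 0.68 in G37H. Relative to other plasma protein genes it was at -0.0080, -0.0046, 0.12 and 0.48. Apoa5, which favours triglyceride hydrolysis, was at 0.50 in DTrsp, -0.03 in A34, 0.14 in G37L, with -0.07 in G37H, and so was near 0 in A34 and G37H. Apoc1, a small protein that hinders receptor uptake of particles, was at 0.52, 0.38, 0.45 and 0.56 in the order DTrsp, A34, G37L, G37H. Its 2 features lay within 0.34 of each other in every line.

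Apoe, the ligand by which remnant particles bind receptors of the LDL receptor family, was at 0.24 in DTrsp, 0.50 in A34, 0.54 in G37L, with 0.72 in G37H. The largest of these is a 1.64-fold higher level, at or above that of 94.6% of genes. Macrophages also make Apoe. The median of 16 Kupffer cell and macrophage markers was -0.10 in DTrsp, 0.54 in A34, 0.73 in G37L, with 0.53 in G37H, with 7, 14, 16 and 14 of the 16 above 0. The markers did not all run alike: Vsig4 was at 0.36, 0.70, 1.03 and 1.56 in the same order of lines, C1qa at -0.59, 0.98, 0.21 and 0.45, and Fcgr1 at -0.34, -1.55, 1.13 and 1.24. The part of macrophages in the Apoe values was not tested, and signal levels were not used here.

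Across the family, 6 genes, Apoa1, Apoa2, Apoc1, Apoc3, Apoe and Apom, were above 0 in all 4 lines as deposited, between 0.24 and 0.73. Of these, only Apoa2 and Apom kept that sign relative to both ribosomal and other plasma protein genes. How many of all genes were above 0 in every line was not counted. Mutant RNA carried the same dye in every line, so a shared sign cannot be told apart from a dye effect. Of the 40 gene values, 1 changed sign after centring on the column median, 7 relative to ribosomal protein genes and 11 relative to other plasma protein genes. In G37H, Apoa4 was below 0 under each of these. By Euclidean distance over the 4 columns, Apoa2 and Apoc3 were nearest to each other, at 0.15, and Apoa2 was also the nearest to Apoc1 and Apom. The nearest member to Apoa4 was Apob, at a distance of 2.64. Outside the family, Vps28, Serf2, Prdx4, Rgl1 and Marcks were nearest to the median apolipoprotein profile, at distances of 0.11 to 0.13. The gene nearest to Apoa4 was Ifi205, at 0.78, with -2.08 in G37H; it was chosen after its value was seen.

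Neighbouring genes of a cluster did not share 1 level. On chromosome 9, in genome order, Apoa1, Apoc3, Apoa4 and Apoa5 had log2 ratios of 0.70, 0.68, -2.64 and -0.07 in G37H. In G37L they had 0.73, 0.58, -0.61 and 0.14, in A34 0.34, 0.42, -0.47 and -0.03, and in DTrsp 0.66, 0.47, 0.39 and 0.50. By gene averages Apoa4 was the lowest of the cluster in all 4 lines, although 1 of its features in DTrsp, at 1.05, was the highest value of the cluster. The next gene beyond Apoa5, Zpr1, was at -1.10 in G37H and -1.02 in G37L, chosen after its values were seen. On chromosome 7, in genome order, Apoc2, Apoc4, Apoc1 and Apoe had 0.39, -0.15, 0.56 and 0.72 in G37H. Apoc4, a minor apolipoprotein that was not among the 10 genes, had 0.27 in DTrsp, 0.72 in A34 and -0.23 in G37L, and was the highest of this cluster in A34.

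**Figure D3:**
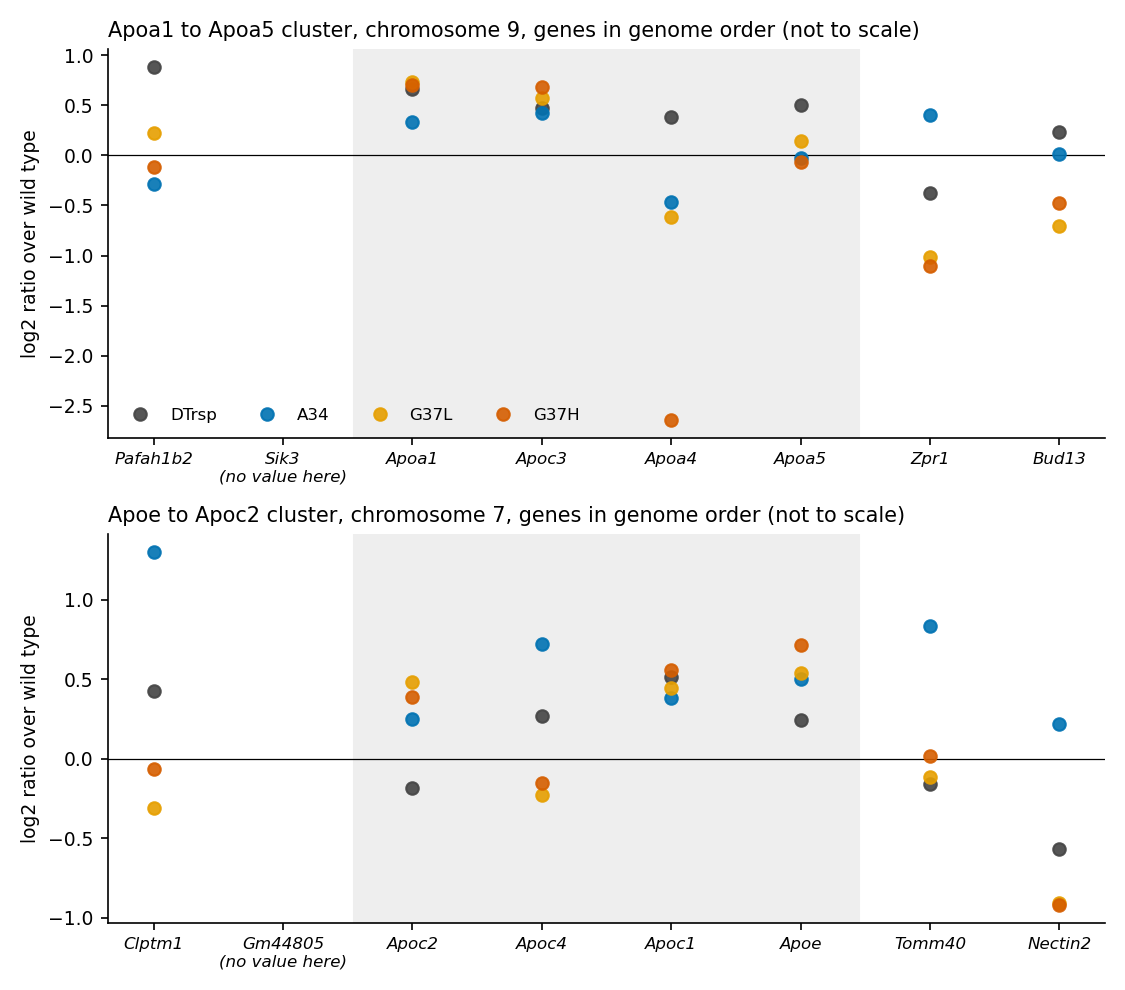
Log2 ratio over wild type, as deposited, for the genes of both apolipoprotein clusters and the nearest protein-coding genes on each side, in genome order and not to scale; grey marks the cluster and colours the lines. In G37H, Apoa4 lies at -2.64 between Apoc3 at 0.68 and Apoa5 at -0.07.

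Promoter windows were found for 8 of the 10 genes in the RefSeq table of GRCm38.p6, with 12 windows in all. Each was searched on both strands for 8 motifs. The Apoa4 window held the HNF4 motif CAAAGTNCA once, as CAAAGTTCA, from 182 to 174 bases before the start; 1.2% of 32536 windows held it. HNF4A is a nuclear receptor that drives liver genes, and Hnf4a itself was at 0.64 in DTrsp, 0.47 in A34, 0.35 in G37L, with 0.47 in G37H. The Apoa1 window held none of the motifs, and the Apoa5 window held TATAAA, found in 12.3% of windows. The others searched were GTTAATNAT for HNF1 (0.744% of windows), TTGCNNAA for C/EBP (9.57%), TGTTTAC for FOXA (3.17%), the nuclear receptor core AGGTCA (14%), the cyclic AMP response core TGACGT (6.5%) and TCACNCCAC for SREBP (1.04%). Apoa2 windows held matches of C/EBP, FOXA, AGGTCA and TATAAA, and the Apob window held C/EBP and TATAAA. The Apoc2 window held AGGTCA and an Apoe window TATAAA, while the Apom window held none. The HNF1, TGACGT and SREBP motifs matched no window of these genes. These are matches of letters and show no binding.

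Genes of the wider lipoprotein pathway were read from 6 lists, of which 112 genes were measured. At least 2-fold higher were 5 in DTrsp, 6 in A34, 9 in G37L, with 4 in G37H, and at least 2-fold lower were 3, 3, 7 and 6. As shares, 4.46%, 5.36%, 8.04% and 3.57% were higher, against 3.27%, 1.4%, 2.51% and 2.78% of all genes in the same order of lines. The shares lower were 2.68%, 2.68%, 6.25% and 5.36%, against 1.62%, 0.452%, 3.96% and 3.1% of all genes, and none of these differences was tested. Their median was 0.24 in DTrsp, 0.20 in A34, -0.06 in G37L, with -0.03 in G37H. Of 15 other apolipoproteins, the serum amyloid genes Saa1, Saa2, Saa3 and Saa4, whose proteins ride on high-density particles, were at 2.27, 1.39, 1.11 and 1.56 in G37H and at 4.31, 4.79, 3.61 and 1.82 in G37L. In A34 these 4 genes were at 1.29, 0.64, 0.88 and 0.43, and in DTrsp at 0.05, 0.22, -0.16 and 0.75. As deposited, Apoa1 was at 0.70 in G37H and 0.73 in G37L, and also at 0.66 in DTrsp. A link between Apoa1 and the serum amyloid genes was not tested. Saa1 and Saa2 are similar in sequence, so a probe may read both. Apol9a and Apol9b, near-identical interferon-induced genes, were at 1.22 and 1.63 in DTrsp and at 1.5 and 1.51 in A34. Apol7a was at -1.46 in G37L.

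Among 21 genes of particle assembly and secretion, Mttp, which loads lipid onto Apob, was at 0.84 in DTrsp, 0.10 in A34, 0.46 in G37L, with 0.36 in G37H. Its partner subunit P4hb was at 1.06 in DTrsp, where Apob was at -0.48. Mia2, which helps export large cargo from the endoplasmic reticulum, was at -1.50 in DTrsp and 1.04 in A34. Apobec1, the enzyme that edits the Apob transcript in mouse liver, was at -1.56 in G37L, and its cofactor A1cf at -0.96 there. Apob was at 0.17 in G37L as deposited and at -0.17 relative to ribosomal protein genes. The chaperones Hspa5, Pdia3 and Hsp90b1, which fold secreted proteins, were at 1.78, 1.35 and 1.17 in G37L. Cidec, a lipid droplet protein, was at -1.05 in A34.

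Among 14 receptors and uptake genes, Cd36, a fatty acid and lipoprotein scavenger receptor, was at 2.41 in DTrsp, -1.23 in A34, -1.63 in G37L, with -1.92 in G37H. Cd36 was thus above 0 in the knockout and below 0 in the 3 transgenic lines. The other receptor gene past 2-fold was Lgmn, a lysosomal protease, at 1.02 in G37L. Of 15 lipases and their regulators, lipoprotein lipase, Lpl, was at 2.01 in DTrsp, 0.18 in A34, 0.27 in G37L, with -0.76 in G37H. The endothelial lipase Lipg was at -0.73 in DTrsp, -1.26 in A34, 0.01 in G37L, with 0.22 in G37H. Ces1d, a carboxylesterase that mobilises triglyceride for secretion, was at -2.0 in G37L, against 0.59 in DTrsp, 0.46 in A34 and 0.53 in G37H.

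Of 14 genes of high-density particle remodelling, 1 was at least 2-fold higher in A34 (1.4% of all genes), 1 lower in DTrsp (1.62%) and 1 lower in G37L (3.96%), counts too small to read against those shares. Lcat, which esterifies cholesterol on these particles, was at 1.01 in A34, Abcg8, a sterol exporter, at -1.38 in G37L and Pla2g7, a phospholipase carried on lipoproteins, at -1.40 in DTrsp. Abca1, which lipidates Apoa1, was at 0.48 in DTrsp, -0.00 in A34, 0.40 in G37L, with 0.01 in G37H.

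Of 33 regulators of lipoprotein genes, 5 were at least 2-fold lower in G37H, a share of 15.2% where that of all genes was 3.1%. The numbers lower in the other lines were 1 in DTrsp (3.03%, against 1.62% of all genes), 0 in A34 (0.452% of all genes) and 2 in G37L (6.06%, against 3.96%). At least 2-fold higher were 0 in DTrsp (3.27% of all genes), 1 in A34 (3.03%, against 1.4%), 1 in G37L (3.03%, against 2.51%) and 0 in G37H (2.78%). The differences were not tested. The 5 in G37H were the lipogenic factor Srebf1 at -1.68, the nuclear receptor Pparg at -1.59, the repressor Nr0b2 at -1.27, Usf1 at -1.18 and Onecut1 at -1.09. Srebf1 and Onecut1 were also past 2-fold in G37L, at -1.80 and -1.07, and Onecut1 in DTrsp, at -1.32. Pparg was at -0.43 in DTrsp, -0.84 in A34 and -0.83 in G37L. Foxa3 was at 1.13 in G37L and the coactivator Ppargc1b at 1.25 in A34. Creb3l3, a liver factor known to activate Apoa4 and Apoc2 in mice, was at 0.43 in DTrsp, 0.58 in A34, 0.26 in G37L, with 0.25 in G37H.

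**Figure D4:**
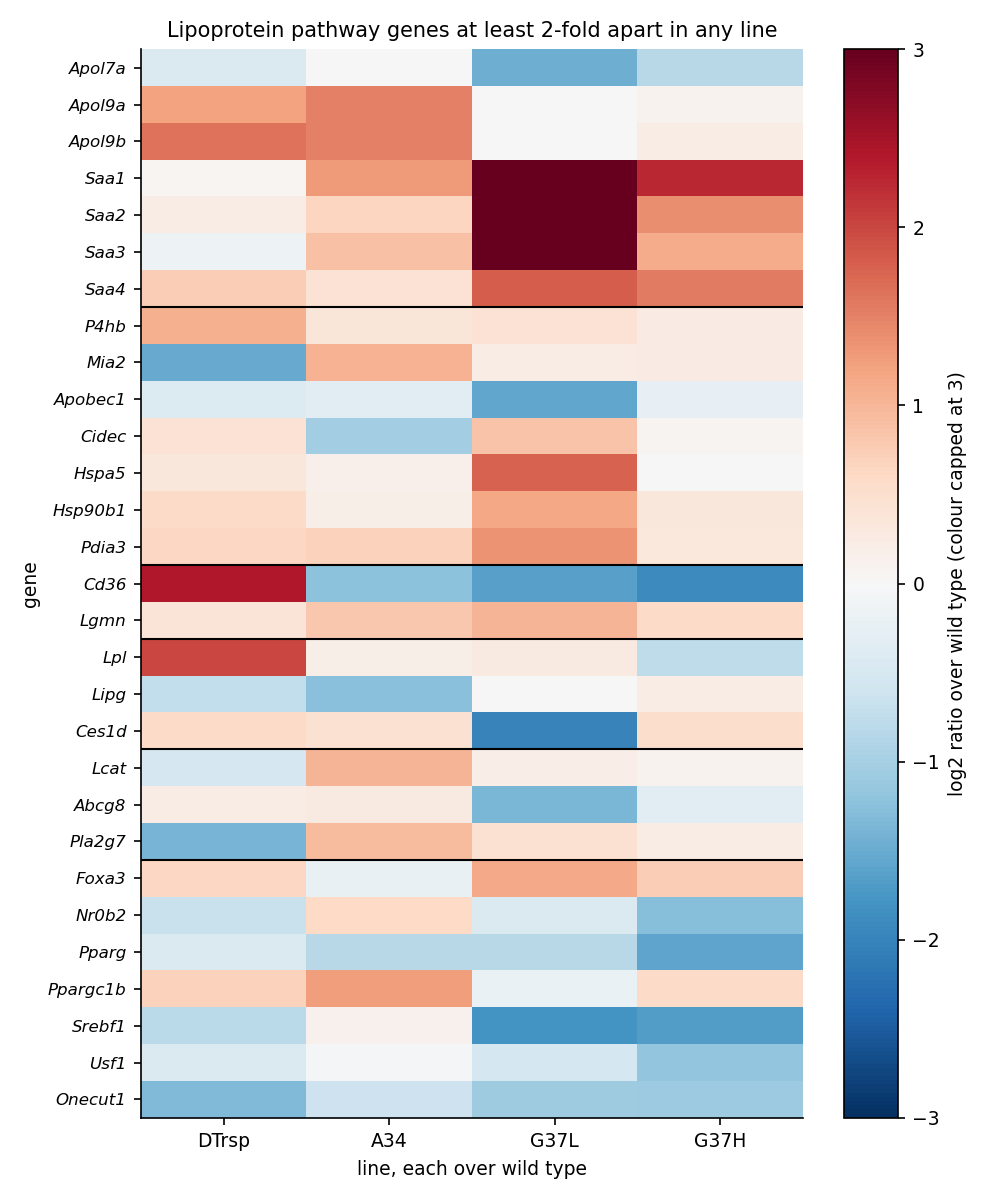
Log2 ratio over wild type (colour, capped at 3 in either direction) of the 29 measured lipoprotein pathway genes at least 2-fold apart in any line; rows are genes grouped by list and columns are lines. Cd36 is at 2.41 in DTrsp and -1.92 in G37H, and the Saa genes are highest in G37L.

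Markers of tissue make-up were set beside these values. The 20 hepatocyte markers had medians of 0.61 in DTrsp, 0.20 in A34, 0.06 in G37L, with 0.00 in G37H. They did not run alike in the G37 lines, where 12 were above 0 and 8 below in G37L, with 10 and 10 in G37H. Among them, Alb was at 0.79 in DTrsp, 0.42 in A34, 0.67 in G37L, with 0.72 in G37H. Ttr was at 0.78, 0.42, 0.50 and 0.72 in the same order of lines. The hepatocyte markers past 2-fold were others: Fbp1 at 1.02 in DTrsp, G6pc at -1.02 in A34 and -1.15 in G37H, and Glul at -1.21 in G37H. Of the intestinal markers, for a tissue that also makes Apoa4 and Apob, only Fabp2 and Anpep were measured; they were at -0.48 and -0.13 in DTrsp, -0.05 and 0.96 in A34, -0.80 and -0.33 in G37L, and -0.30 and -0.20 in G37H. Medians for 12 stellate cell and fibroblast markers were -0.39 in DTrsp, 0.24 in A34, -0.06 in G37L, with -0.10 in G37H, and for 10 endothelial markers 0.53, 0.37, -0.06 and 0.38. The part of cell composition in the apolipoprotein values was not tested.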

How the data were processed

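The table used holds log2 ratios of mutant over wild-type liver for 15478 array features in 4 columns, each deposited as the authors' average over animals, per the labels. RNA was extracted with Trizol, and 15 µg was copied from oligo-dT and coupled to Cy3 or Cy5, per the labels' protocols. The sources used here do not give the normalization, background correction, spot filter or log base. Values were taken as deposited; the number of arrays limits the precision, and signal intensities were not used here.

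Features annotated to 1 gene were named through the gene identifier and the mouse gene table of GRCm38.p6 (12984 features; 63 kept the annotation's symbol). The 110 features with several genes and 2321 not listed were left unnamed. Features of a gene were averaged, with pandas 2.3.3 in Python 3.11.15. A count of genes uses a threshold of 2-fold. Lists were described by medians and counts, with no test, since there are no replicate values; lines were compared by subtracting log2 ratios. The counting and decimal steps were tested on simulated data. The genes, lists and comparisons were chosen with earlier results of these data known. Named were all 10 genes, the pathway genes at least 2-fold apart in any line and the 5 genes nearest by distance. The rule also covers 2-fold genes of the marker and plasma protein lists, which are given by medians with few names. Mttp, A1cf, Lipa, Vsig4, C1qa, Fcgr1, Hnf4a, Abca1, Creb3l3, Apoc4, Zpr1, Ifi205, Alb, Ttr, Fabp2 and Anpep were chosen after their values were seen. Alternatives were other thresholds, centrings, feature summaries, scaling, log base and leaving out averages over fewer arrays. Promoters came from RefSeq.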

Additional observations from a re-analysis of the deposited data

Results flagged for a closer look

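The following lipoprotein pathway genes, 9 of 112 (8.04%, against 6.20% of all genes), were past 1.5-fold in opposite directions in 2 lines; the differences were not tested, because each line has 1 averaged value. Cd36 was at 2.41 in DTrsp and -1.92 in G37H, 4.32 apart. Lpl was at 2.01 in DTrsp and -0.76 in G37H, 2.77 apart. Ces1d was at 0.59 in DTrsp and -2.0 in G37L, 2.59 apart. Mia2 was at 1.04 in A34 and -1.50 in DTrsp, 2.54 apart. Pla2g7 was at 0.96 in A34 and -1.40 in DTrsp, 2.36 apart. Cidec was at 0.86 in G37L and -1.05 in A34, 1.91 apart. Nr0b2 was at 0.61 in A34 and -1.27 in G37H, 1.88 apart. A1cf was at 0.61 in A34 and -0.96 in G37L, 1.57 apart. Lipa, the lysosomal acid lipase, was at 0.62 in DTrsp and -0.61 in G37L, 1.24 apart. None of the 10 apolipoprotein genes met this rule on gene averages.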

How the results depend on the processing

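Centred on ribosomal protein genes, the apolipoprotein median moved to -0.018 in DTrsp and 0.18 in G37L. Centred on other plasma protein genes it moved to 0.0043 in DTrsp, -0.066 in A34 and 0.059 in G37L, and 1 gene, Apoa4, was 2-fold lower in G37L. The mean over the 10 genes in G37H was 0.10, against a median of 0.47; without Apoa4, chosen after seeing the data, the median there was 0.56. At 1.5-fold, the genes higher numbered 2 in DTrsp, 1 in A34, 1 in G37L, with 3 in G37H, and 1, Apoa4, was lower in G37L. Read as natural logs, 1 was 2-fold higher in G37L, with 2 in G37H. With features counted singly, 1 was 2-fold higher in DTrsp and 2 were lower in G37H, all of Apoa4. The cause of these shifts beyond the change of threshold or centre was not tested. Shares of all genes were not computed under these alternatives, so the counts cannot be set against a background. In the other 144 recomputations of medians, counts and line differences, values stayed within the spread between features of a gene or within 1.5 times the count. For single genes, 59 values moved further and 245 did not. The only gene average that was 2-fold apart, Apoa4 in G37H, kept its sign. Of the smaller values, 1 changed sign when centred on the column median, 7 on ribosomal and 11 on other plasma protein genes. With the second feature alone, 1 changed sign. No animal could be left out, as the values are averages. No paired analysis was possible because each line has 1 averaged column.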
